A study of Mus musculus with 8 samples.

Results

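The genes described here are 10 genes of melanin synthesis, Tyr, Tyrp1, Dct, Pmel, Mlana, Oca2, Slc45a2, Slc24a5, Gpr143 and Mitf, in the naive cornea of an albino and a black mouse strain. They were chosen by name, for their known place in pigment formation, with earlier results of these data known. All 10 were found among the 54532 genes of the expression table. Total RNA was sequenced from 4 corneas of BALB/c mice (BALB/cN in the study's methods) and 4 corneas of C57BL/6N mice. Both are inbred strains, the mice were male, and the corneas were untreated and not inflamed. BALB/c mice are albino because their Tyr allele encodes an inactive enzyme, and they also carry the brown allele of Tyrp1, whereas C57BL/6N mice are black and nonagouti. How the corneas were cut from the eyes, and whether each came from another animal, is not given in the sources used here, so that the p-values measure only the spread between these samples. In whole corneas, fewer pigment cells and less RNA per pigment cell cannot be told apart.

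Melanin is made in melanosomes, organelles of melanocytes and of the pigment epithelia of the iris, ciliary body and retina. Tyrosinase, the product of Tyr, catalyses the rate-limiting oxidation of tyrosine, and the related enzymes encoded by Tyrp1 and Dct act on later intermediates. Pmel forms the fibrils on which the pigment is laid down, and MITF is the transcription factor that switches on most of these genes. The clear cornea makes no pigment, and pigmented tissue lies next to it at the limbus and in the iris. The albino allele of Tyr leaves pigment cells in place, but without pigment.

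MITF binds short E-box sequences, among them the M-box, which contains CATGTG. Promoters of 6 of the 10 genes were present in the RefSeq promoter table (GRCm38.p6), each with 250 bases before and 50 bases after the transcription start. The sequences of the 3 enzyme genes are printed because these genes carry the comparison of Tyr with its relatives. Capitals mark CATGTG or its reverse complement CACATG, and the text runs in the direction of transcription. The promoter of Tyr is at chr7:87493463-87493762 on the minus strand, that of Tyrp1 at chr4:80833963-80834262 on the plus strand and that of Dct at chr14:118052197-118052496 on the minus strand.
Tyr: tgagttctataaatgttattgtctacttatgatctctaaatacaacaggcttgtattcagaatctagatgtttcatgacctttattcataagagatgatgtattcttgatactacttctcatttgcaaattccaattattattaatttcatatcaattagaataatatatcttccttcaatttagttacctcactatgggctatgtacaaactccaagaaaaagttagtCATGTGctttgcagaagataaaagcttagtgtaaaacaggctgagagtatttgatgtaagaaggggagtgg
Tyrp1: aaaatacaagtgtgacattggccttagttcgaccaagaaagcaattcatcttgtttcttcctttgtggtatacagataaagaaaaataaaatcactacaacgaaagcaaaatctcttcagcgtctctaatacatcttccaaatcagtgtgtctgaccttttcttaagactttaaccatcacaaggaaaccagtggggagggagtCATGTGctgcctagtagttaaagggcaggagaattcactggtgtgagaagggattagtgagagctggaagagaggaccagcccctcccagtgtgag
Dct: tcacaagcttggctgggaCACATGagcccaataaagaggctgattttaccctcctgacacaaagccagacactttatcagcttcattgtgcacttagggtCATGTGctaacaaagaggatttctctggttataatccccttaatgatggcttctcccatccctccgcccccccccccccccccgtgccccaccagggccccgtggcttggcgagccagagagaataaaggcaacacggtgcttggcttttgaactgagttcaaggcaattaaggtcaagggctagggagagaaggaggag

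In Tyr the first base of CATGTG lay 21 bases before the start, in Tyrp1 46 bases and in Dct 150 bases, and Dct held CACATG 232 bases before the start as well. Oca2 and Slc24a5 each held CACATG, at 186 and 13 bases before the start. None of the 3 promoters of Mitf held it. Searched on both strands, the motif was present in 14.2% of the 32817 promoters of 300 bases in the table. The palindrome CACGTG, another E-box, was in none of the 8 promoters of these genes and in 7.15% of all promoters. Promoters of Pmel, Mlana, Slc45a2 and Gpr143 were not analysed here.

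The table holds regularized log (rlog) values on a log2 scale, normalized for library size by the authors. Because rlog shrinks weakly expressed genes towards their mean, the read counts behind the values were also recovered by inverting the transformation. For genes averaging 1 to 1000 reads, 93.3% of the recovered values lay within 0.1 of a whole number. Of the 80 values of the 10 genes, 73 did, and constants from a second fit on every other gene moved none of the values under 500 reads by more than 0.039 reads. Recovered reads summed to between 36.7 and 41.2 M in BALB/c corneas and between 29.7 and 37.0 M in C57BL/6N corneas. Normalized reads are reads divided by the size factor of the cornea.

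The strain labels did not order the melanin genes. BALB/c replicate 4 was the highest of the 8 corneas for 10 of the 10 genes and BALB/c replicate 1 the second highest for 10 of 10. The other 2 albino corneas lay below every C57BL/6N cornea for 6 of the 10 genes. For 9 of the 10 genes the lowest rlog value was that of BALB/c replicate 3. Summed over the 10 genes, normalized reads were 20597 in BALB/c replicate 1, 526 in replicate 2, 374 in replicate 3 and 46165 in replicate 4. In C57BL/6N the sums were 4102, 1084, 3097 and 858 in replicates 1 to 4. The highest albino cornea thus had 124 times the melanin gene reads of the lowest, against 4.78 times between the highest and lowest black cornea. The 2 high BALB/c corneas together held 86.9% of the normalized reads of the 10 genes in all 8 corneas.

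**Figure D1:**
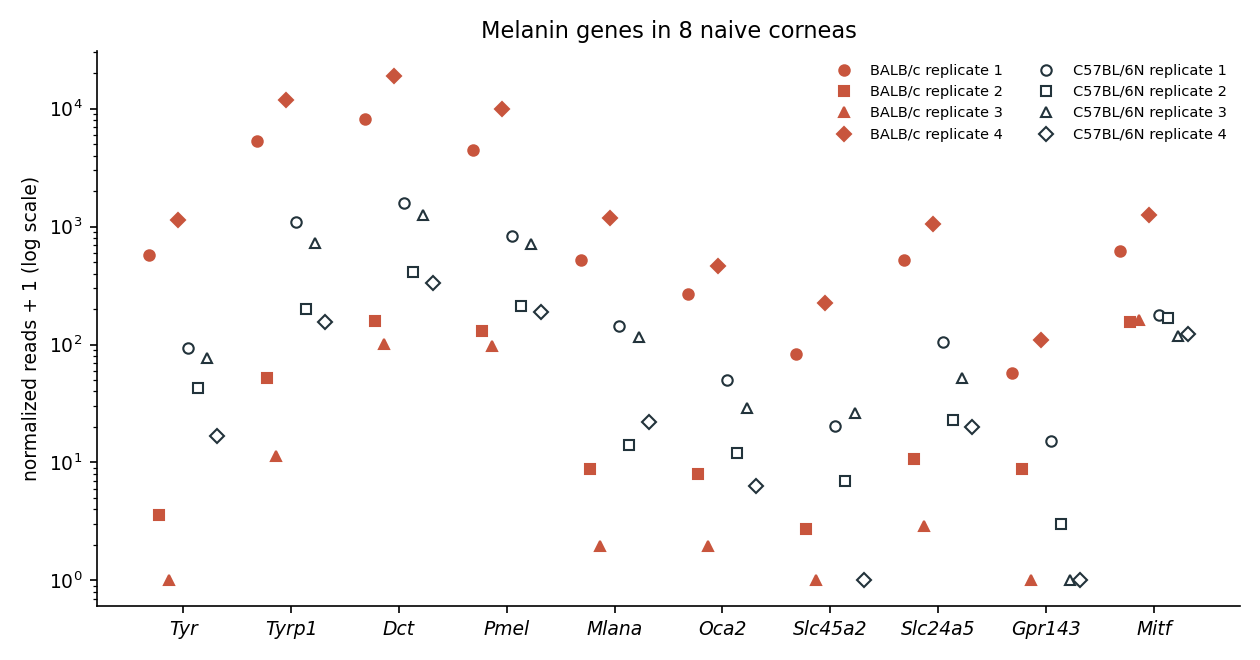
Normalized reads plus 1 (log axis) of the 10 melanin genes, 1 point for each cornea, with BALB/c filled in red and C57BL/6N open in dark. BALB/c replicates 4 and 1 are the 2 highest points of every gene, and for 6 of the 10 genes BALB/c replicates 2 and 3 lie below every C57BL/6N cornea.

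Tyr (ENSMUSG00000004651, chromosome 7 from 87424771 to 87493512, minus strand, GRCm38) had 673, 3, 0 and 1171 reads in BALB/c replicates 1 to 4. It had 91, 42, 60 and 15 reads in C57BL/6N replicates 1 to 4. The messenger RNA of the albino strain was therefore abundant in 2 corneas and at or near 0 in the other 2, and all 4 black corneas lay between these extremes. On the rlog scale the mean was 6.71 ± 2.30 (SD, n = 4 corneas) in BALB/c and 5.96 ± 0.53 (SD, n = 4) in C57BL/6N. Taken as BALB/c minus C57BL/6N, the strain difference was 0.75 with a standard error of 0.94 and a 95% interval from -1.36 to 2.86, and limma gave an adjusted p (Benjamini-Hochberg) of 0.677.

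Tyrp1 (ENSMUSG00000005994, chromosome 4 from 80834123 to 80851719, plus strand), whose enzyme acts downstream of tyrosinase and stabilises it, had 6181, 58, 11 and 12256 reads in the BALB/c corneas. The C57BL/6N corneas had 1077, 198, 572 and 145. Its normalized reads spanned a factor of 1147 between the highest and the lowest cornea (95% exact counting interval 641 to 2298). Dct (ENSMUSG00000022129, chromosome 14 from 118012790 to 118052244, minus strand), dopachrome tautomerase, had 9551, 179, 107 and 19523 reads in BALB/c and 1542, 413, 987 and 314 in C57BL/6N. The 2 low albino corneas again had fewer reads of both genes than any black cornea. The rlog difference between the strains was 0.60 (standard error 1.35) for Tyrp1 and 0.78 (standard error 1.18) for Dct, and limma gave adjusted p-values of 0.833 and 0.736.

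Pmel (ENSMUSG00000025359, chromosome 10 from 128704195 to 128720238, plus strand) had 5210, 148, 103 and 10286 reads in BALB/c and 819, 211, 567 and 178 in C57BL/6N. The gene overlaps Cdk2 and Dgka on the other strand, with 727 to 1224 and 12066 to 15411 reads per cornea. The libraries were strand-specific, but whether the counting used strand is not given in the sources used here, so that reads of the 3 genes may not be fully separated. Mlana (ENSMUSG00000024806, chromosome 19 from 29697824 to 29708634, plus strand), a small membrane protein of melanosomes that binds Pmel, had 610, 9, 1 and 1208 reads in BALB/c and 140, 13, 90 and 20 in C57BL/6N. Both structural genes had the same 2 high and 2 low albino corneas as the enzymes. The strains differed by 0.98 ± 1.06 (standard error) for Pmel and 0.73 ± 0.94 for Mlana on the rlog scale, with limma's adjusted p at 0.622 and 0.685.

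Oca2, Slc45a2 and Slc24a5 encode transporters that set the ion content and pH of melanosomes, and loss of each causes albinism. Oca2 (chromosome 7 from 56239760 to 56536518, plus strand) had 312, 8, 1 and 481 reads in BALB/c and 48, 11, 22 and 5 in C57BL/6N. Slc24a5 (chromosome 2 from 125068124 to 125088677, plus strand), which overlaps Myef2 on the other strand, had 610, 11, 2 and 1091 in BALB/c and 103, 22, 40 and 18 in C57BL/6N. For these transporters the 2 low albino corneas approached the limit of detection, since a count of 0 allows up to 3 reads. Slc45a2 (chromosome 15 from 11000721 to 11029233, plus strand) was the weakest of the 3, with 96, 2, 0 and 231 reads in BALB/c and 19, 6, 20 and 0 in C57BL/6N. Gpr143 (chromosome X from 152781921 to 152808646, plus strand), a receptor of the melanosome membrane, had 66, 9, 0 and 112 reads in BALB/c and 14, 2, 0 and 0 in C57BL/6N. At this depth 2 of the 4 black corneas gave no Gpr143 read. The rlog differences of these 4 genes lay between 0.54 for Gpr143 and 0.92 for Slc24a5. Limma's adjusted p was 0.281 for Gpr143, 0.475 for Oca2, 0.499 for Slc45a2 and 0.576 for Slc24a5.

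Mitf (ENSMUSG00000035158, chromosome 6 from 97807052 to 98021349, plus strand) differed from the genes it regulates in its low corneas. It had 721, 175, 172 and 1288 reads in BALB/c and 173, 167, 92 and 116 in C57BL/6N. Its 2 high corneas were the same as for the other genes, but in the remaining 6 corneas normalized reads stayed between 116 and 176, where those of Tyr ranged from 0 to 92.7. The highest cornea had 10.7 times the normalized Mitf reads of the lowest, against 188 times for Dct. Its strain difference of 0.93 on the rlog scale had a standard error of 0.42 and a 95% interval from -0.02 to 1.87. The adjusted p of limma, 0.220, was the lowest of the 10.

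Between the strains, none of the 10 genes passed limma's threshold (adjusted p of at most 0.01), against 5.74% of the 25402 genes tested. None had an unadjusted p under 0.05, against 23.7% of all genes tested, and none was called by limma voom on the recovered reads, which called 5.61% of all genes. All 10 rlog differences were above 0 and their median was 0.77 (0.008 over all genes tested), but 10 of the 10 confidence intervals held 0. The corneas of the strains overlapped for all 10 genes, whereas 18.3% of all genes tested had 4 BALB/c values entirely on one side of the 4 C57BL/6N values. By spread, the genes stood near the top of the table, with 7 of the 10 within-strain standard deviations among the highest 1% of genes tested. The standard deviation was larger in BALB/c than in C57BL/6N for 10 of the 10 genes, with medians of 2.17 and 0.54 on the rlog scale.

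The differences were also computed without BALB/c replicates 1 and 4. These corneas were left out because they were the highest for all 10 genes, so that lower differences follow from the choice, and the values are given as a description with no test. Of the 10 differences 9 were then below 0. The rlog difference was then -1.22 (standard error 0.32) for Tyr, -2.19 (standard error 0.59) for Tyrp1, -1.65 (standard error 0.48) for Dct and -1.19 (standard error 0.46) for Pmel. Gpr143 lay at -0.0057 (standard error 0.13), and Mitf was above 0, at 0.08 (standard error 0.13). Leaving out BALB/c replicate 4 alone turned Tyr to -0.03, Tyrp1 to -0.49, Dct to -0.20 and Mlana to -0.04, and without BALB/c replicate 1 Tyrp1 fell to -0.17. With all 8 corneas kept, limma voom on reads gave a difference of -0.58 for Tyr, on a log2 scale. Mean normalized reads of Tyr were 429 in BALB/c and 56.6 in C57BL/6N, and BALB/c replicates 2 and 3 had 3 and 0 reads.

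**Figure D2:**
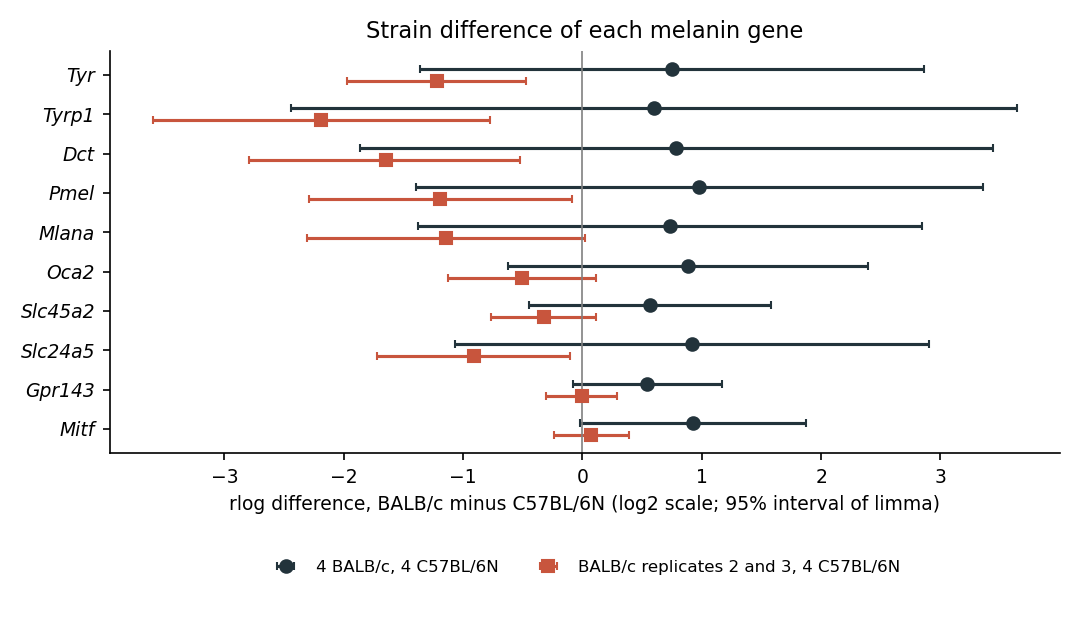
Difference in rlog value, BALB/c minus C57BL/6N (log2 scale), of each melanin gene with the 95% interval of limma, for all 8 corneas (dark circles) and with BALB/c replicates 1 and 4 left out (red squares). All 10 intervals of the 8 corneas hold 0, and 9 of the 10 differences lie below 0 once the 2 corneas are left out. These 2 were left out because they were the highest, so that the red squares and their intervals are a description and no test.

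To ask whether Tyr messenger RNA was lower in the albino strain relative to other melanin genes, Tyr was compared with each of the other 9 genes within the same cornea. On the rlog scale the difference Tyr minus Tyrp1 averaged -2.67 ± 0.97 (SD, n = 4) in BALB/c and -2.83 ± 0.52 (SD, n = 4) in C57BL/6N. For Tyr minus Dct the means were -3.74 ± 0.56 and -3.70 ± 0.36, and for Tyr minus Pmel -3.12 ± 0.25 and -2.89 ± 0.36. The strain difference in the ratio was 0.15 for Tyrp1, -0.03 for Dct and -0.23 for Pmel, and over the 9 genes it ran from -0.23 for Pmel to 0.21 for Gpr143, with 5 of 9 below 0. The exact two-sided permutation test gave p-values between 0.314 and 1 for the 9 ratios, where 0.0286 is the smallest that 4 corneas against 4 allow, and all 9 were 1 after Benjamini-Hochberg adjustment. The strains overlapped in every ratio.

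Counted in reads, the ratio had another order. As log2 of Tyr reads plus 0.5 over the other gene's reads plus 0.5, it was lower on average in BALB/c for all 7 genes that had reads in every cornea. The strain difference was -0.73 for Tyrp1, -1.40 for Dct and -1.74 for Pmel, and p-values of the exact permutation test for the 7 ran from 0.114 to 0.429 (0.367 to 0.429 after adjustment over all 9). For Slc45a2 and Gpr143 the added 0.5 set the ratio in corneas with no read of the gene, among them BALB/c replicate 3, which had no read of Tyr either. The strains overlapped in all 9 ratios here too.

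The values by cornea show where the scales part. Per 100 reads of Dct, Tyr had 7.05 reads in BALB/c replicate 1 (95% exact interval 6.51 to 7.62) and 6.00 in replicate 4 (5.65 to 6.36). In C57BL/6N it had 5.90 in replicate 1 (4.72 to 7.29), 10.2 in replicate 2 (7.22 to 14.0), 6.08 in replicate 3 (4.60 to 7.89) and 4.78 in replicate 4 (2.64 to 8.0). In the 2 albino corneas with many melanin reads, Tyr thus made up as much of the Dct count as in the black corneas. BALB/c replicate 2 had 1.68 Tyr reads per 100 of Dct (0.34 to 4.98), from 3 reads of Tyr and 179 of Dct. BALB/c replicate 3 had 0 Tyr reads beside 107 of Dct, which allows up to 2.80 per 100 when a count of 0 is taken to allow 3 reads (3.51 by the two-sided exact interval). These intervals cover counting error only, because PCR copies of a molecule are counted as separate reads.

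Against Pmel the pattern was alike, with 12.9 and 11.4 Tyr reads per 100 in BALB/c replicates 1 and 4, and at least 8.43 in each C57BL/6N cornea. BALB/c replicate 2 had 2.03 and replicate 3 had 0, which allows up to 2.91 (3.65 by the exact interval). Against Tyrp1 the gap was narrower, with 8.45 to 21.2 in the 6 other corneas, 5.17 (1.04 to 15.9) in BALB/c replicate 2 and 0 in replicate 3, where 11 reads of Tyrp1 allow up to 27.3 (39.8 by the exact interval). For 7 of the 9 genes the ratio of Tyr in both BALB/c replicates 2 and 3 was below that of every other cornea with reads of the gene. For Slc45a2 and Gpr143 this held for replicate 2, and replicate 3 had no ratio because it had no read of either gene. All of these ratios share the same 3 and 0 reads of Tyr and are therefore no independent observations. In BALB/c replicate 3 only 1 read each of Mlana and Oca2 and 2 reads of Slc24a5 were recovered. The exact intervals there reached 3900, 3900 and 532 Tyr reads per 100. For these genes and Tyrp1 the interval in replicate 3 thus held the ratios of all other corneas. On the rlog scale, in contrast, BALB/c replicate 3 had the highest Tyr to Tyrp1 difference of all 8 corneas, -1.56, although no read of Tyr was recovered there, since shrinkage raises a value of 0 reads towards the gene's mean.

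**Figure D3:**
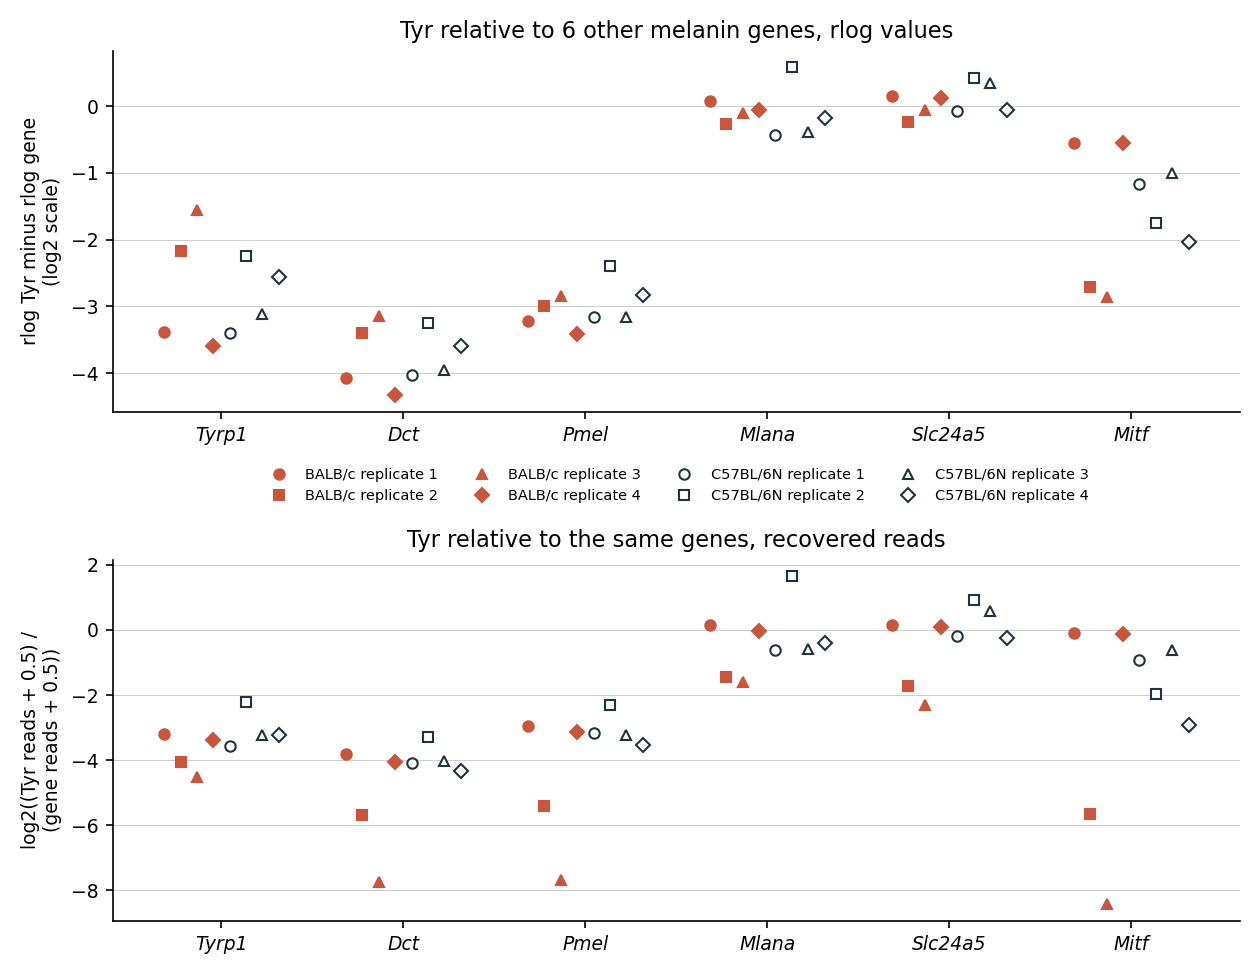
Tyr relative to 6 other melanin genes in each cornea, as a difference of rlog values (upper panel) and as the log2 ratio of recovered reads with 0.5 added (lower panel); BALB/c is filled in red and C57BL/6N open in dark. BALB/c replicates 2 and 3, with 3 and 0 reads of Tyr, are the 2 lowest points in reads against all 6 genes. In rlog values they are the 2 lowest against Mitf only.

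Some other ratios to Dct also lay apart in the 2 low albino corneas. Tyrp1 had between 46.2 and 69.8 reads per 100 of Dct in the 6 other corneas, 32.4 (23.7 to 43.8) in BALB/c replicate 2 and 10.3 (4.98 to 19.1) in replicate 3. Pmel went the other way, with 51.1 to 57.4 per 100 of Dct in the 6 other corneas, 82.7 (66.0 to 103) in BALB/c replicate 2 and 96.3 (72.7 to 127) in replicate 3. In these corneas the ratio to Dct was thus lower for Tyr and Tyrp1 and higher for Pmel. Dct overlaps the antisense gene 4930435M08Rik on the other strand, with 0 to 40 reads per cornea. The part of reads from this gene in the Dct counts, and from Cdk2 and Dgka in the Pmel counts, was not tested. Mitf had 97.8 and 161 reads per 100 of Dct in BALB/c replicates 2 and 3, against 6.60 to 40.4 elsewhere. Slc24a5 had 6.15 reads per 100 of Dct in BALB/c replicate 2 (3.01 to 11.3) and 1.87 in replicate 3 (0.223 to 6.92), against 4.05 to 6.68 elsewhere, so that its intervals held values of the other corneas.

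As a share of the reads of the 10 genes, Tyr took 2.80% and 2.46% in BALB/c replicates 1 and 4 and 1.85% to 3.87% in the C57BL/6N corneas. In BALB/c replicate 2 it took 0.498% (95% exact interval 0.103 to 1.45) and in replicate 3 it took 0 of 397 reads, which allows a share of up to 0.756% (0.925% by the exact interval). Dct was the largest share in 7 of the 8 corneas, between 29.7% and 41.0%. In BALB/c replicate 3 the largest was Mitf with 43.3%. Compared per length, as normalized reads per 1000 exon bases, the order by the median over the 8 corneas was Pmel (202), Tyrp1 (163), Dct (141), Mlana (63.8), Mitf (26.5), Slc24a5 (15.6), Tyr (8.29), Oca2 (4.90), Slc45a2 (4.25) and Gpr143 (2.47). Neighbours in this order overlapped in their ranges over the corneas, but Pmel ranked first in 7 of the 8 corneas and Tyrp1 in the remaining one, C57BL/6N replicate 1. The place of Mitf changed most with the cornea. It lay above Dct in BALB/c replicate 3 and above Tyrp1 in replicates 2 and 3, but below Slc24a5 in BALB/c replicates 1 and 4 and C57BL/6N replicates 1 and 3.

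**Figure D4:**
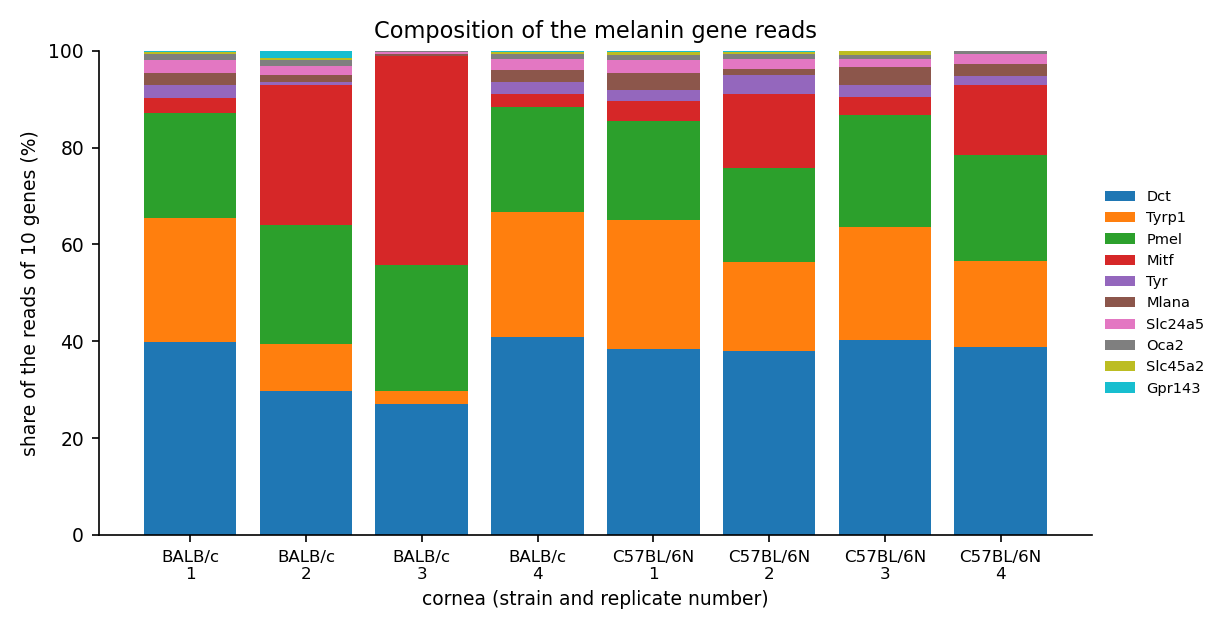
Share of each gene in the summed reads of the 10 melanin genes (percent, stacked bars) by cornea. BALB/c replicates 1 and 4 have nearly the same composition as C57BL/6N replicates 1 and 3, while Mitf takes 29.1% and 43.3% and Tyr 0.498% and 0% in BALB/c replicates 2 and 3.

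The levels of the genes varied together across the corneas. The Pearson correlation of each gene with the mean of the other 9 over the 8 corneas was between 0.898 for Mitf and 0.998 for Pmel. Without BALB/c replicates 1 and 4 it remained between 0.926 and 0.992 for 8 of the genes, and was 0.47 for Gpr143 and -0.07 for Mitf. These are descriptions over 8 libraries of 2 strains that share the same 2 high corneas.

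Of 14166 protein-coding genes whose rlog values averaged 3 or more, the 10 most like the mean of the melanin genes were Mfrp, Trpm1, Tspan10, Adamts16, Fam13c, Fstl4, Syt4, Kcnj13, Lhx2 and Eya1, with correlations over 8 corneas from 0.996 to 0.988. Trpm1, a cation channel of melanocytes and retinal bipolar cells, had 5203, 611, 400 and 9264 reads in BALB/c and 1338, 718, 1240 and 707 in C57BL/6N. Mfrp, a membrane protein known from the retinal pigment epithelium and ciliary epithelium, had 1099, 7, 2 and 1993 reads in BALB/c and 155, 26, 108 and 21 in C57BL/6N. Both had the 2 high and 2 low albino corneas of the melanin genes, which follows from their choice by this correlation. Kcnj13, a potassium channel of the retinal pigment epithelium, had 354, 6, 4 and 897 in BALB/c and 59, 10, 24 and 0 in C57BL/6N.

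Most marker genes of iris muscle and lens were highest in the 2 corneas richest in melanin gene reads. The 6 genes listed as iris muscle were Acta2, Myh11, Des, Cnn1, Tagln and Synpo2. All 6 had their 2 highest values in BALB/c replicates 1 and 4. Their summed normalized reads ranged from 566 to 23301 in BALB/c and from 587 to 3154 in C57BL/6N. Whether these reads came from iris muscle or from other smooth muscle was not tested. Of the 13 lens genes with reads, 12 had these 2 corneas on top, with sums of 9458 and 3759 in BALB/c replicates 1 and 4, 581 and 563 in replicates 2 and 3, and 328 to 789 in C57BL/6N. Among markers of the retinal pigment epithelium, Rgr was listed at 0 in all corneas and Rpe65 was below a mean of 1 read. The other 6 summed to 67.3 to 416 in BALB/c and 124 to 282 in C57BL/6N. Of these 6, 5 were highest in BALB/c replicate 1 or 4, but only 1 had its 2 highest values in these 2 corneas. The 4 melanocyte markers outside the melanin genes (Sox10, Kit, Ednrb and Mc1r) summed to 11338 to 14421 in BALB/c and 12178 to 13910 in C57BL/6N, most of it from Kit and Ednrb, which are made by other cells too. Within this list Sox10, the melanocyte and Schwann cell factor, had 527, 43, 113 and 956 reads in BALB/c and 77, 119, 24 and 20 in C57BL/6N. Mc1r, the receptor for melanocyte-stimulating hormone, had 25, 2, 0 and 40 reads in BALB/c and 0 in all 4 C57BL/6N corneas. The part of these tissues in the melanin gene levels was not tested.

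Markers of the cornea itself did not follow the melanin genes. Of the 6 corneal epithelium genes, among them Krt12, none was highest in BALB/c replicate 1 or 4, and their sum ranged from 1859970 to 2230890 in BALB/c and from 1880500 to 2145100 in C57BL/6N. The 6 stromal keratocyte genes summed to 300561, 96269, 311015 and 318041 in BALB/c and to 438043, 427927, 47434 and 51442 in C57BL/6N. BALB/c replicate 3, with the fewest melanin reads, had as many stromal reads as BALB/c replicates 1 and 4.

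**Figure D5:**
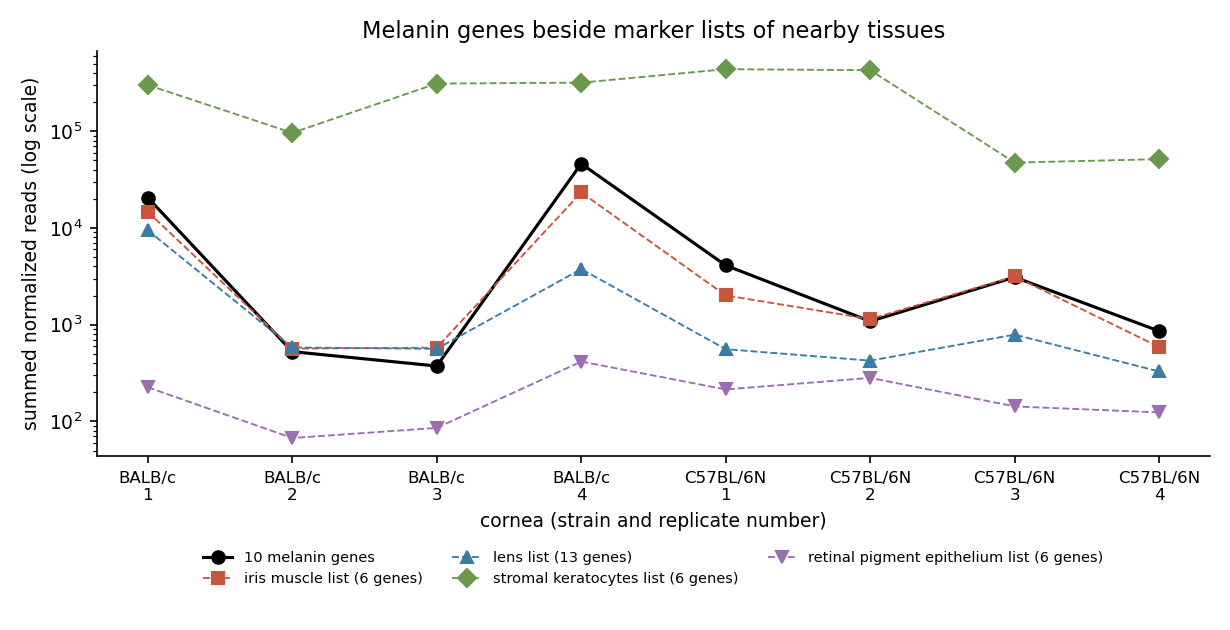
Summed normalized reads (log axis) of the 10 melanin genes and of 4 marker lists in each of the 8 corneas, with lines joining the corneas only to guide the eye. The iris muscle list peaks with the melanin genes in BALB/c replicates 1 and 4, at 14717 and 23301, and the stromal keratocyte list is lowest in C57BL/6N replicates 3 and 4.

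Beyond the 10 genes, 69 further genes of pigment biology were sorted into 5 lists, of which 66 were tested. In these lists 5 genes were called by limma, 3 higher and 2 lower in BALB/c, which is 7.58% against 5.74% of all genes tested (2.83% higher and 2.91% lower). In 12 of the 66 the strains did not overlap, as in 18.3% of all genes tested. The median rlog difference over the 66 was 0.04.

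Sox9, a transcription factor of neural crest and epithelial stem cells, was the only one of 14 tested transcription factors that was called. Its rlog value was 11.97 ± 0.08 (SD, n = 4) in BALB/c and 11.28 ± 0.03 (SD, n = 4) in C57BL/6N. The rise of 0.69 had a standard error of 0.05 and, by limma, an adjusted p of 3.64e-05. With 4591 to 4944 reads in BALB/c and 1817 to 2323 in C57BL/6N, the strains did not overlap. Mlph, melanophilin, which links Rab27a on the melanosome to the motor myosin Va, was the only one of 7 tested movement genes called. It had 2404, 1332, 1033 and 2474 reads in BALB/c and 549, 474, 439 and 412 in C57BL/6N, and was higher by 1.17 rlog units in BALB/c (standard error 0.20, limma's adjusted p = 0.0048). Its 2 highest corneas were those of the melanin genes, but BALB/c replicates 2 and 3 also stayed above every black cornea.

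Of 26 tested genes of melanosome biogenesis, Bloc1s6, a subunit of the BLOC-1 sorting complex, was higher by 0.50 in BALB/c (standard error 0.07, limma's adjusted p = 0.0021), with 1166 to 1512 reads in BALB/c and 534 to 889 in C57BL/6N. Kif13a, a kinesin that brings cargo to melanosomes, was lower in BALB/c (rlog difference -0.69, standard error 0.05, limma's adjusted p = 2.04e-05), with 4049 to 4690 reads in BALB/c and 6350 to 7611 in C57BL/6N. Among 11 signalling genes, Edn1, the peptide endothelin-1, was lower in BALB/c (rlog difference -0.52, standard error 0.10, limma's adjusted p = 0.0080). None of the 8 tested transport genes was called by limma. Without BALB/c replicates 1 and 4, Sox9 and Kif13a were still called by limma, as were 1.8% of all genes tested. Mlph, Bloc1s6 and Edn1 were not called. This fit held fewer BALB/c corneas, chosen by their melanin gene reads, so that its calls are a description and no test. The rlog difference was then 0.50 for Bloc1s6 and -0.51 for Edn1, close to the values with all corneas, and 0.77 for Mlph.

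Other genes separated the strains completely without being called. In the biogenesis list Hps5, Vps33a and Bloc1s5 had the widest gaps between the nearest corneas of the strains, of 0.06, 0.04 and 0.03 on the rlog scale, and rlog differences of -0.17, -0.31 and 0.15 between the means. In the transport list these were Clcn7 and Tpcn2, with gaps of 0.10 and 0.0017 and differences of -0.22 and -0.34. In the signalling list they were the receptor gene Fzd4 and Kitl, the ligand of Kit, with gaps of 0.14 and 0.09 and differences of -0.53 and 0.39. Vamp7 and Asip, the agouti gene, were not analysed here.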

How the data were processed

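Strand-specific total RNA libraries of 4 BALB/c and 4 C57BL/6N corneas were read from both ends. With TopHat2 2.1.1 the authors aligned the reads to a GRCm38 genome carrying the variants of the strain, and with HTSeq 0.7.1 they counted them per Ensembl gene. The authors turned these counts into rlog values with DESeq2 1.30 and deposited them on a log2 scale, adjusted for library size. Tool versions follow the submitters' processing notes. All columns were mapped to corneas by their labels.

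Limma 3.58.1 (R 4.3.3) was used to compare the strains over genes whose rlog values averaged 0 or more, with a variance trend, Benjamini-Hochberg adjustment and a threshold of 0.01. For ratios of Tyr, all regroupings of the corneas were enumerated (two-sided exact permutation test, scipy 1.17.1). Reads were recovered for 25493 genes with a mean of at least 1 read, from constants that made the values whole. Whole values fell to 67.6% at means of 1000 to 5000 reads and 24.4% above. Recovery and limma were tested on simulated data. Replicate corneas differed by more than sampling noise, with chi-square per gene from 10.8 to 94.6.

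Genes named beyond the 10 are pathway genes that were called, up to 3 per list with the widest gap between separated strains, the 10 genes most like the melanin mean, and marker lists. The members and lists were chosen with earlier results of these data known. Alternatives were no variance trend, a robust fit, other filters on the mean, median centring, quantile normalization, an empirical null, the replicate block, a threshold of 0.05 and each cornea left out. Chosen after seeing the data were voom on recovered reads, the fit without BALB/c replicates 1 and 4, and ratios in reads. Positions came from GENCODE M21 (GRCm38).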

Additional observations from a re-analysis of the deposited data

Results flagged for a closer look

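Among the melanin genes, their ratios to Tyr and the named pathway genes, 62 groups of 4 corneas were examined for a cornea apart from the rest. Chance alone would give about 3.1 such groups, and 1 was found. For Gpr143 in C57BL/6N, replicate 1 had an rlog value of 3.92 and the nearest cornea 3.63, and this gap made up 0.843 of the range of the group. These values stand for 14 reads in replicate 1 and 0 to 2 reads in the others.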

How the results depend on the processing

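No melanin gene was called by limma under any alternative, and the sign of 9 of the 10 strain differences changed without BALB/c replicates 1 and 4, chosen because they were highest. Without both, the rlog difference was -1.22 for Tyr, -2.19 for Tyrp1, -1.65 for Dct, -1.19 for Pmel, -1.14 for Mlana, -0.51 for Oca2, -0.33 for Slc45a2, -0.91 for Slc24a5 and -0.0057 for Gpr143, and Mitf stayed above 0 at 0.08. When single corneas were left out it ran from -0.032 to 1.42 for Tyr, -0.49 to 1.64 for Tyrp1, -0.20 to 1.65 for Dct and -0.043 to 1.40 for Mlana. By voom it was -0.58 for Tyr. The cause was not tested. The number of genes called by limma, 1458, fell to 958 after median centring, 457 without the 2 corneas and 951 to 1162 with 1 cornea left out (951 without C57BL/6N replicate 4), and rose to 2842 at an adjusted p of 0.05. With an empirical null it was 0, with 1478 genes at an unadjusted p under 0.05. The 5 called pathway genes became 12 at 0.05, 2 without the 2 corneas, 0 with the empirical null (5 at an unadjusted p under 0.05) and 2 to 5 with 1 cornea left out. Only 2 remained without BALB/c replicate 1, and 3 without C57BL/6N replicate 1, 3 or 4.

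With the replicate number as a block, 554 genes and 2 pathway genes were called. Same-numbered corneas correlated in their deviations by 0.31, -0.53, -0.20 and -0.45 for numbers 1 to 4, so that the numbers do not pair the corneas. With these pairs the ratio of Tyr could not go below p = 0.125 (exact sign-flip permutation), and with 3 corneas against 4 not below 0.0571.

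In reads instead of rlog values the strain difference of the Tyr ratio changed sign for Tyrp1 (-0.73), Mlana (-0.75), Slc45a2 (-1.46) and Gpr143 (-3.33), where rlog shrinks corneas with few reads. The last 2 values depend on the 0.5 added to counts of 0. Leaving out 1 cornea was done for the ratio in rlog values only. The strain difference in rlog values then ran from -0.22 to 0.46 for Tyrp1, -0.23 to 0.16 for Dct and -0.32 to -0.07 for Pmel. It ran from -0.091 to 0.25 for Mlana, -0.36 to 0.082 for Oca2 and -0.19 to 0.55 for Slc45a2. For Slc24a5 it ran from -0.25 to -0.08, for Gpr143 from -0.32 to 0.70 and for Mitf from -0.55 to 0.22. Ratios below 10 reads are limited by depth.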

Other observations

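Best1, an anion channel of the retinal pigment epithelium, separated the strains, unlike the melanin genes, and was lower in BALB/c. No read was recovered in any of the 4 BALB/c corneas, and 66, 41, 36 and 52 reads were recovered in C57BL/6N replicates 1 to 4. The rlog difference was -0.86 (limma's adjusted p, by Benjamini-Hochberg, was 1.02e-04), and Best1 was the only one of 6 tested markers of this tissue that was called. The 2 albino corneas richest in melanin gene reads had none.

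The sums of the remaining marker lists did not have the order of the melanin genes. Taken singly, 6 of 8 photoreceptor genes and 4 of 6 Schwann cell genes were highest in BALB/c replicate 1 or 4. This held for 1 of 4 corneal endothelium genes and 0 of 5 conjunctival genes. Photoreceptor genes summed to 304 to 617 normalized reads in BALB/c and 203 to 362 in C57BL/6N, Schwann cell genes to 5643 to 7328 and 6531 to 14434, and corneal endothelium genes to 30587 to 39726 and 23927 to 47171. Conjunctival genes summed to 523790 to 773050 in BALB/c and 886598 to 1119160 in C57BL/6N, and Muc4 made up 98.0% to 99.7% of the sum. Of the 5 genes 4 were called by limma, all lower in BALB/c, against 5.74% of all genes tested. The fifth, Muc5ac, a goblet cell mucin, was not called, and had 34, 84, 555 and 430 reads in BALB/c and 4, 2, 0 and 0 in C57BL/6N (rlog difference 2.19, limma's adjusted p = 0.0225).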
